A study of Mus musculus with 12 samples.

Results

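The Hox genes encode the homeodomain transcription factors that lie side by side in the HoxA, HoxB, HoxC and HoxD clusters, and 38 of them were described here, of 21887 protein-coding genes of the mouse gene table. They were chosen by name, as members of the 4 clusters of the mouse genome build mm10: 10 in HoxA on chromosome 6, 10 in HoxB on chromosome 11, 9 in HoxC on chromosome 15 and 9 in HoxD on chromosome 2. CUT&Tag, in which an antibody guides a transposase to cut and tag the chromatin around a histone mark, was used to map H3K4me3 and H3K27me3 in tumour organoids. The organoids, also called spheroids in the labels, were grown from PyMT mammary tumours, a mouse model in which the polyoma middle T oncogene drives breast cancer, and the labels give their genotype as WT. Each of the 2 marks was mapped after a control treatment (Ctrl), after SR2 and after THC, which makes 6 groups, all taken 3 days after treatment, with 2 libraries per group, or 12 in all. The labels and design text spell out neither SR2 nor THC, and the title of the series names modulation of the cannabinoid receptor CB2R as its subject. Replicate 1 of each group carries batch 1 in the labels and replicate 2 batch 2. The labels do not say whether replicates came from separate cultures, so the p-values measure the spread between these libraries, which may be technical.

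Hox genes give cells their position along the body axis, and within a cluster the genes are switched on in the order in which they lie, from paralogue group 1 at the 3′ end to group 13 at the 5′ end. Where they are silent, Polycomb complexes cover the clusters with H3K27me3, and where they are transcribed, Trithorax-type methyltransferases place H3K4me3 at their starts, so the clusters are a standard place to read both marks. In the mammary gland several Hox genes act in the development of the epithelium, among them Hoxa9, Hoxb9 and Hoxd9, and Hoxc6 has been studied as a gene expressed in the gland and its tumours.

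These 5 promoter sequences show the DNA at Hox starts with and without a mark; most were picked by their marks and allow no comparison. Hoxa3 had the most H3K27me3 in the Ctrl libraries and Hoxa10 came next among the genes marked in each Ctrl library but in none of a treatment. Hoxd13, Hoxd9 and Hoxd4 were chosen after their values were seen, as the promoter with both marks, the promoter marked in the most libraries, and a promoter with neither. Each line gives the 250 bases before the start, 5′ to 3′, from RefSeq on GRCm38.p6, with every CG in capitals.
Hoxa3, chr6:52213068-52213317, minus strand: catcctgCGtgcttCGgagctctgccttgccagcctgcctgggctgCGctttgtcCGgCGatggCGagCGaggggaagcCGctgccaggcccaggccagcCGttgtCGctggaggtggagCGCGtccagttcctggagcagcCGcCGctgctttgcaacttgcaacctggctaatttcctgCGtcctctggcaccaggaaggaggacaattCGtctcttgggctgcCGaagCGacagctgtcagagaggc
Hoxa10, chr6:52240855-52241104, minus strand: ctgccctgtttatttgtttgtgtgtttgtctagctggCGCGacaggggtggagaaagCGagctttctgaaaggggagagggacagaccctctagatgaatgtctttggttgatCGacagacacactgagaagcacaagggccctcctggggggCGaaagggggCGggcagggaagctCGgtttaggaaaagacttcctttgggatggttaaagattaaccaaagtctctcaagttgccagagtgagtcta
Hoxd13, chr2:74667975-74668224, plus strand: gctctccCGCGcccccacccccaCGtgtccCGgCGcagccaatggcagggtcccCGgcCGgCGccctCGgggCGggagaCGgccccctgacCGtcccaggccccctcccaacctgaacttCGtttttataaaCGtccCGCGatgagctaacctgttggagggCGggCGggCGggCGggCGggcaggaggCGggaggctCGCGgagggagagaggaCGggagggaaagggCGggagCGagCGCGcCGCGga
Hoxd9, chr2:74697513-74697762, plus strand: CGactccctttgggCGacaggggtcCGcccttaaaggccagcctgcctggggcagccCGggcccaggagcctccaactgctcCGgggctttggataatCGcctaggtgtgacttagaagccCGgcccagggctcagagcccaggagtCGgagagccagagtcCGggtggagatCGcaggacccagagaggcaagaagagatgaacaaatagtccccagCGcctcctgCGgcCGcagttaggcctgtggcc
Hoxd4, chr2:74721728-74721977, plus strand: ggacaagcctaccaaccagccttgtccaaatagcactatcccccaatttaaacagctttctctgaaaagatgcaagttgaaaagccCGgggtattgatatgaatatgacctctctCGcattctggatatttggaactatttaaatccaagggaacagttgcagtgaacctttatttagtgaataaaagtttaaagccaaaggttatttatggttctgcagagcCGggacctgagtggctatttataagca

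These stretches hold 18 CG in Hoxa3, 7 in Hoxa10, 31 in Hoxd13, 13 in Hoxd9 and 3 in Hoxd4. H3K27me3 peaks covered the whole Hoxd9 stretch in Ctrl replicate 1 and SR2 replicate 1 and 206 of its 250 bp in Ctrl replicate 2 and THC replicate 1. The Hoxa3 and Hoxd13 stretches were covered by H3K27me3 in Ctrl replicate 1 alone, and an H3K4me3 peak covered 107 bp of the Hoxd13 stretch in THC replicate 1. The stretches of Hoxa10 and Hoxd4 had neither mark in any library. The RefSeq table used here holds 24 promoter windows (250 bases before to 50 after a start) for 22 of the 38 genes. Their median was 14.5 CG, with a range of 4 to 45, against a median of 7 over all 32851 windows of the table, and Hoxd1, which carried neither mark, had 29. Hoxa13, with 45, had no peak of either mark in its window. The hexamer AGGTCA, read on both strands and recognised by retinoic acid receptors, was in 7 of the 24 windows (29.2%), those of Hoxd10, Hoxd8, Hoxd3, Hoxd4, Hoxa5, Hoxb4 and Hoxc4, against 16.3% of all windows. TGATNNAT, a composite motif of Hox proteins and their cofactors, was in 16.7% of Hox windows against 8.85% of all, and TTTATGG, a motif of posterior Hox proteins, in 4.17% against 2.75%, both read on both strands. A window with several of these motifs was counted for each, and a match describes letters and not binding.

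The clusters also hold microRNA genes, and the mature sequences of 2 of their families show which copies lay under H3K27me3. MiR-10 and miR-196 are each made from several clusters and repress Hox messages among others. The sequences are from RefSeq on GRCm38.p6, with the seed (bases 2 to 8, which pair with the target) in capitals.
miR-10a-5p (HoxB): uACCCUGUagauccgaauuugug
miR-10b-5p (HoxD): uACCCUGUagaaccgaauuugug
miR-196a-5p (HoxB and HoxC): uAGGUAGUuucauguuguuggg
miR-196b-5p (HoxA): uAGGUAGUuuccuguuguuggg

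Both miR-10 members share the seed ACCCUGU, and all miR-196 copies share AGGUAGU. Within 1 kb of its hairpin, Mir196a-1, between Hoxb9 and Hoxb13, had 809 and 388 bp of H3K27me3 in Ctrl, against 663 and 383 bp under SR2 and 809 and 0 bp under THC. Mir196b, between Hoxa9 and Hoxa10, had 1241 and 577 bp in Ctrl, against 0 and 0 bp under SR2 and 269 and 0 bp under THC. Mir196a-2 in HoxC, which encodes the same mature miR-196a, had no peak of either mark, and neither had Mir10a and Mir10b. Copies that share a seed therefore differed in H3K27me3 at their genes. Mir615, inside Hoxc5, was the microRNA gene with both marks, with 820, 0, 386, 0, 681 and 0 bp of H3K27me3 and, in Ctrl replicate 1, 1247 bp of H3K4me3.

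H3K4me3 was nearly absent from Hox starts. A peak within 1 kb of the start was found for 3 of 38 Hox genes in Ctrl replicate 1, 1 in Ctrl replicate 2, 1 in SR2 replicate 1, 0 in SR2 replicate 2, 1 in THC replicate 1 and 0 in THC replicate 2. Over the 17508 protein-coding genes with a start in the tables, 48.0% to 57.0% had such a peak in each library. Both Ctrl libraries marked 1 Hox gene, Hoxc6, against 54.7% of all genes. Of the 38, 33 had no H3K4me3 at the start in any library. The remaining 5 were Hoxc6, Hoxc5 and Hoxc13 in Ctrl, Hoxa4 in SR2 and Hoxd13 in THC.

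Starts came from the RefSeq promoter table for 22 members and, for the other 16, from the gene table with the strand read from paralogue order, so the clusters were also searched whole. The 4 clusters, each with 5 kb on either side, span 525047 bp, and all 6 libraries together held 10 H3K4me3 peaks in them, which merge into 7 regions. HoxB had none in any library. Of 11 genes that flank the clusters, 5 had the mark in all 6 libraries by the measure of either gene end: Lnpk and Mtx2 beside HoxD, Skap2 beside HoxA, and Calcoco1 and Cbx5 beside HoxC. The region at Mtx2 covered 1045 and 842 bp in Ctrl, against 738 and 1007 bp under SR2 and 681 and 838 bp under THC. Cbx5, which encodes the heterochromatin protein HP1α, had 1865 and 1994 bp in Ctrl and 1610 to 1868 bp in the treated libraries. The other 6 flanking genes had none, among them Evx1 and Evx2, homeobox genes next to HoxA and HoxD.

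**Figure D1:**
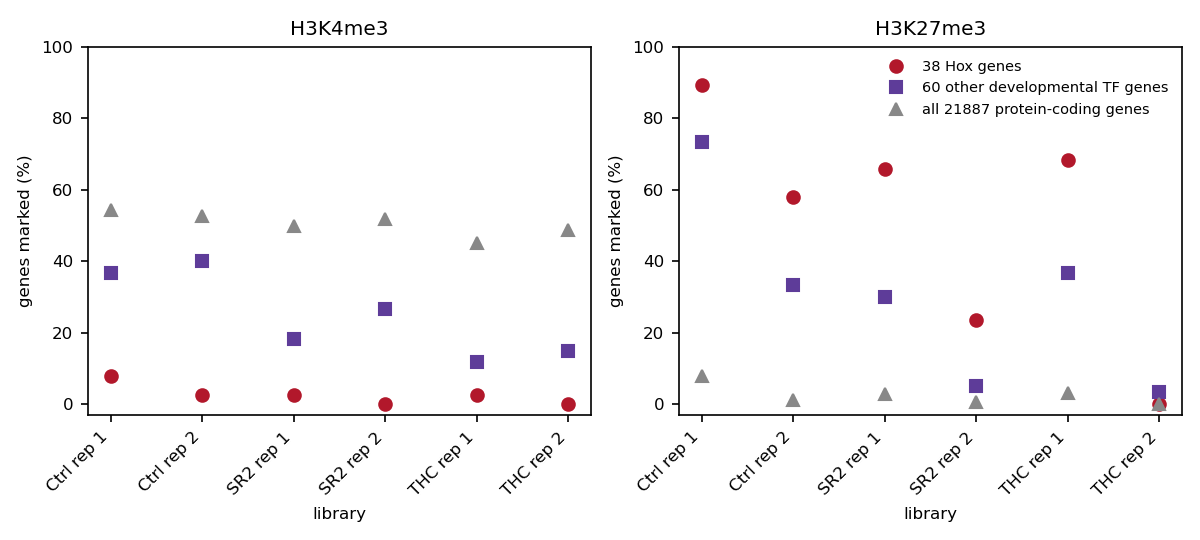
Share of genes marked (%, y axis) in each of the 6 libraries of a mark (x axis), for H3K4me3 within 1 kb of either gene end (left) and H3K27me3 over the gene or 5 kb of flank (right). Circles are the 38 Hox genes, squares 60 other developmental transcription factor genes and triangles all 21887 protein-coding genes: Hox genes lie at the bottom for H3K4me3 and, except in THC replicate 2, at the top for H3K27me3.

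Hoxc6, a homeodomain factor of the middle of the HoxC cluster, was the Hox gene with H3K4me3 in both Ctrl libraries. Its region, chr15:102999074-102999666, lies inside the gene, 848 bp downstream of the start. It covered 355 bp in Ctrl replicate 1, 593 bp in Ctrl replicate 2, and 0 bp in all 4 treated libraries (Ctrl mean 474 ± 168 bp, SD, n = 2). The Ctrl and treated libraries did not overlap. Hoxc6 thus had the mark in each Ctrl library and in none of SR2 or of THC, as did 1.39% of the 9581 genes marked in both Ctrl libraries for SR2 and 5.19% for THC. With the same number of peaks taken from each library, or within 250 bp of the start, the count of 1 became 0. Both comparisons use the same Ctrl libraries. No Hox gene gained H3K4me3 in a treatment's pair of libraries after none in Ctrl, against 0.0268% of genes unmarked in Ctrl for SR2 and 0% for THC. Fewer cells with the mark and less mark per cell cannot be told apart in these libraries. The treated lists were also shorter, with 14812 and 15190 peaks for SR2 and 11924 and 13229 for THC, against 18383 and 16442 for Ctrl. The part of list length in the Hoxc6 result was not tested.

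The Hoxc6 region entered limma's test, which needed a peak in at least 2 libraries, only through the Ctrl libraries, where it was high, so its differences and p-values are a description only. On the scale of log2(covered bp + 200), it had a log2 difference from Ctrl of −1.59 for SR2 (SE 0.36, adjusted p = 0.122) and −1.35 for THC (SE 0.36, adjusted p = 0.136). THC and SR2 differed there by 0.24 (SE 0.36, limma adjusted p = 0.763). Neither difference from Ctrl passed the threshold of 0.05, and limma called 0 of 15772 regions in either direction (0% lower) in each of the 3 comparisons. At an unadjusted p under 0.05, limma had 1405 of 15772 regions lower after SR2 (8.91%), 2903 lower after THC (18.4%) and 1079 lower in THC than in SR2 (6.84%), with Hoxc6 among the first and the second. With a pseudocount of 50 bp the Hoxc6 difference was past the threshold, at −3.20 for SR2 (limma adjusted p = 0.0184) and −2.92 for THC (limma adjusted p = 0.0263). The same held without centring of the libraries, at −1.73 for both, where 994 and 1914 regions passed in all. Of 15 alternative settings, 3 took the region out of the test: the same number of peaks from each library, and leaving out either Ctrl library. Over the other 12 its limma adjusted p ranged from 0.0184 to 0.87 for SR2 and from 0.0168 to 0.934 for THC. The Hoxc6 peaks stood low in their lists, at a fold enrichment of 5.63 and 4.94 by the authors' values, where the lists' medians were 7.52 and 7.86.

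The 2 other Hox starts marked in Ctrl were marked in replicate 1 alone. Hoxc5 had the broadest H3K4me3 region of the clusters, chr15:103014464-103015710, with 1247 bp in Ctrl replicate 1 and 0 bp in the other 5 libraries. Hoxc13, which acts in hair follicles, had 441 bp in Ctrl replicate 1 and 0 bp elsewhere, at chr15:102921634-102922074. In HoxC as a whole, H3K4me3 covered 2043 and 593 bp in Ctrl and 0 bp in each SR2 and THC library. The 593 bp are the Hoxc6 peak of Ctrl replicate 2, and the 2043 bp include that of Ctrl replicate 1. The cluster values are therefore not a second observation beside Hoxc6. The Ctrl libraries were above all treated ones, and the difference of −1318 bp was found with p = 0.333 for each treatment in an exact two-sided permutation test, which is the smallest p that 2 against 2 libraries allow. Set against all 4 treated libraries at once, the exact permutation p was 0.133, again the smallest possible. With the same number of peaks from each library, the HoxC difference was 0 bp for both treatments.

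Treated libraries had H3K4me3 at other places in the clusters. Hoxa4 had a peak of 370 bp, 204 bp upstream of the start, in SR2 replicate 1. Hoxd13, the most 5′ gene of HoxD and a factor for digits and genital structures, had 553 bp across its start in THC replicate 1, at chr2:74668118-74668670. Each was seen in 1 library of its pair. A further region lies between Hoxa7 and Hoxa9, 2820 bp upstream of the Hoxa7 start, at chr6:52221393-52222024. It covered 632 and 0 bp in Ctrl, against 364 and 291 bp under SR2 and 0 and 0 bp under THC. It was the H3K4me3 region of the clusters seen in the most libraries, and its groups overlapped: limma's log2 difference was 0.51 for SR2 (SE 0.68, adjusted p = 0.978), −0.65 for THC (SE 0.68, adjusted p = 0.583) and −1.16 for THC against SR2 (SE 0.68, adjusted p = 0.668). The last region, 557 bp in Ctrl replicate 1, lies at an end of Hotairm1, a noncoding RNA gene at the 3′ end of HoxA.

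H3K27me3 was frequent at Hox genes: in 5 of 6 libraries, a larger share of them than of all genes was marked. A broad peak over the gene or its 5 kb of flank was found for 34 of 38 Hox genes in Ctrl replicate 1, 22 in Ctrl replicate 2, 25 and 9 under SR2, and 26 and 0 under THC. Over all 21887 protein-coding genes the shares were 7.92%, 1.11%, 2.96%, 0.507%, 3.07% and 0.137%. In both Ctrl libraries 22 of 38 Hox genes were marked (57.9%), against 0.763% of all genes, so 22 of the 167 genes with this state were Hox genes. The count of 22 was 34 with Ctrl replicate 1 alone, 14 without flank, 5 at a −log10 q of at least 2 and 1 when each list was held to its top 70 peaks. Close neighbours share peaks through their flanks and are not independent, so starts were counted too. A broad peak lay within 1 kb of the start of 10 of 38 Hox genes in both Ctrl libraries (26.3%), against 0.326% of 17508 genes. The 10 were Hoxa13, Hoxb9, Hoxb13, Hoxc10, Hoxc13, Hoxd3, Hoxd9, Hoxd10, Hoxd11 and Hoxd12.

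The number of peaks called differed widely between libraries. The H3K27me3 lists held 70 to 2712 peaks and the H3K4me3 lists 11924 to 18383, and within each group the H3K27me3 list of replicate 1 was the longer. THC replicate 2, with 70 peaks, had none in the 4 clusters. Peak lists hold no read totals, so the depth behind each list is unknown. Peaks covered 44864 bp of the clusters in Ctrl replicate 1, 11948 bp in Ctrl replicate 2, 17221 and 2951 bp under SR2, and 15692 and 0 bp under THC. As a share of all the bp in each list, that was 3.66% and 6.0% in Ctrl, against 4.56% and 4.76% under SR2 and 3.42% and 0% under THC. The SR2 shares lay between the 2 Ctrl shares. Peaks covered 8.54% of the cluster span in Ctrl replicate 1, against 0.0685% of all protein-coding genes with their 5 kb of flank, and 2.28% against 0.0109% in Ctrl replicate 2.

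**Figure D2:**
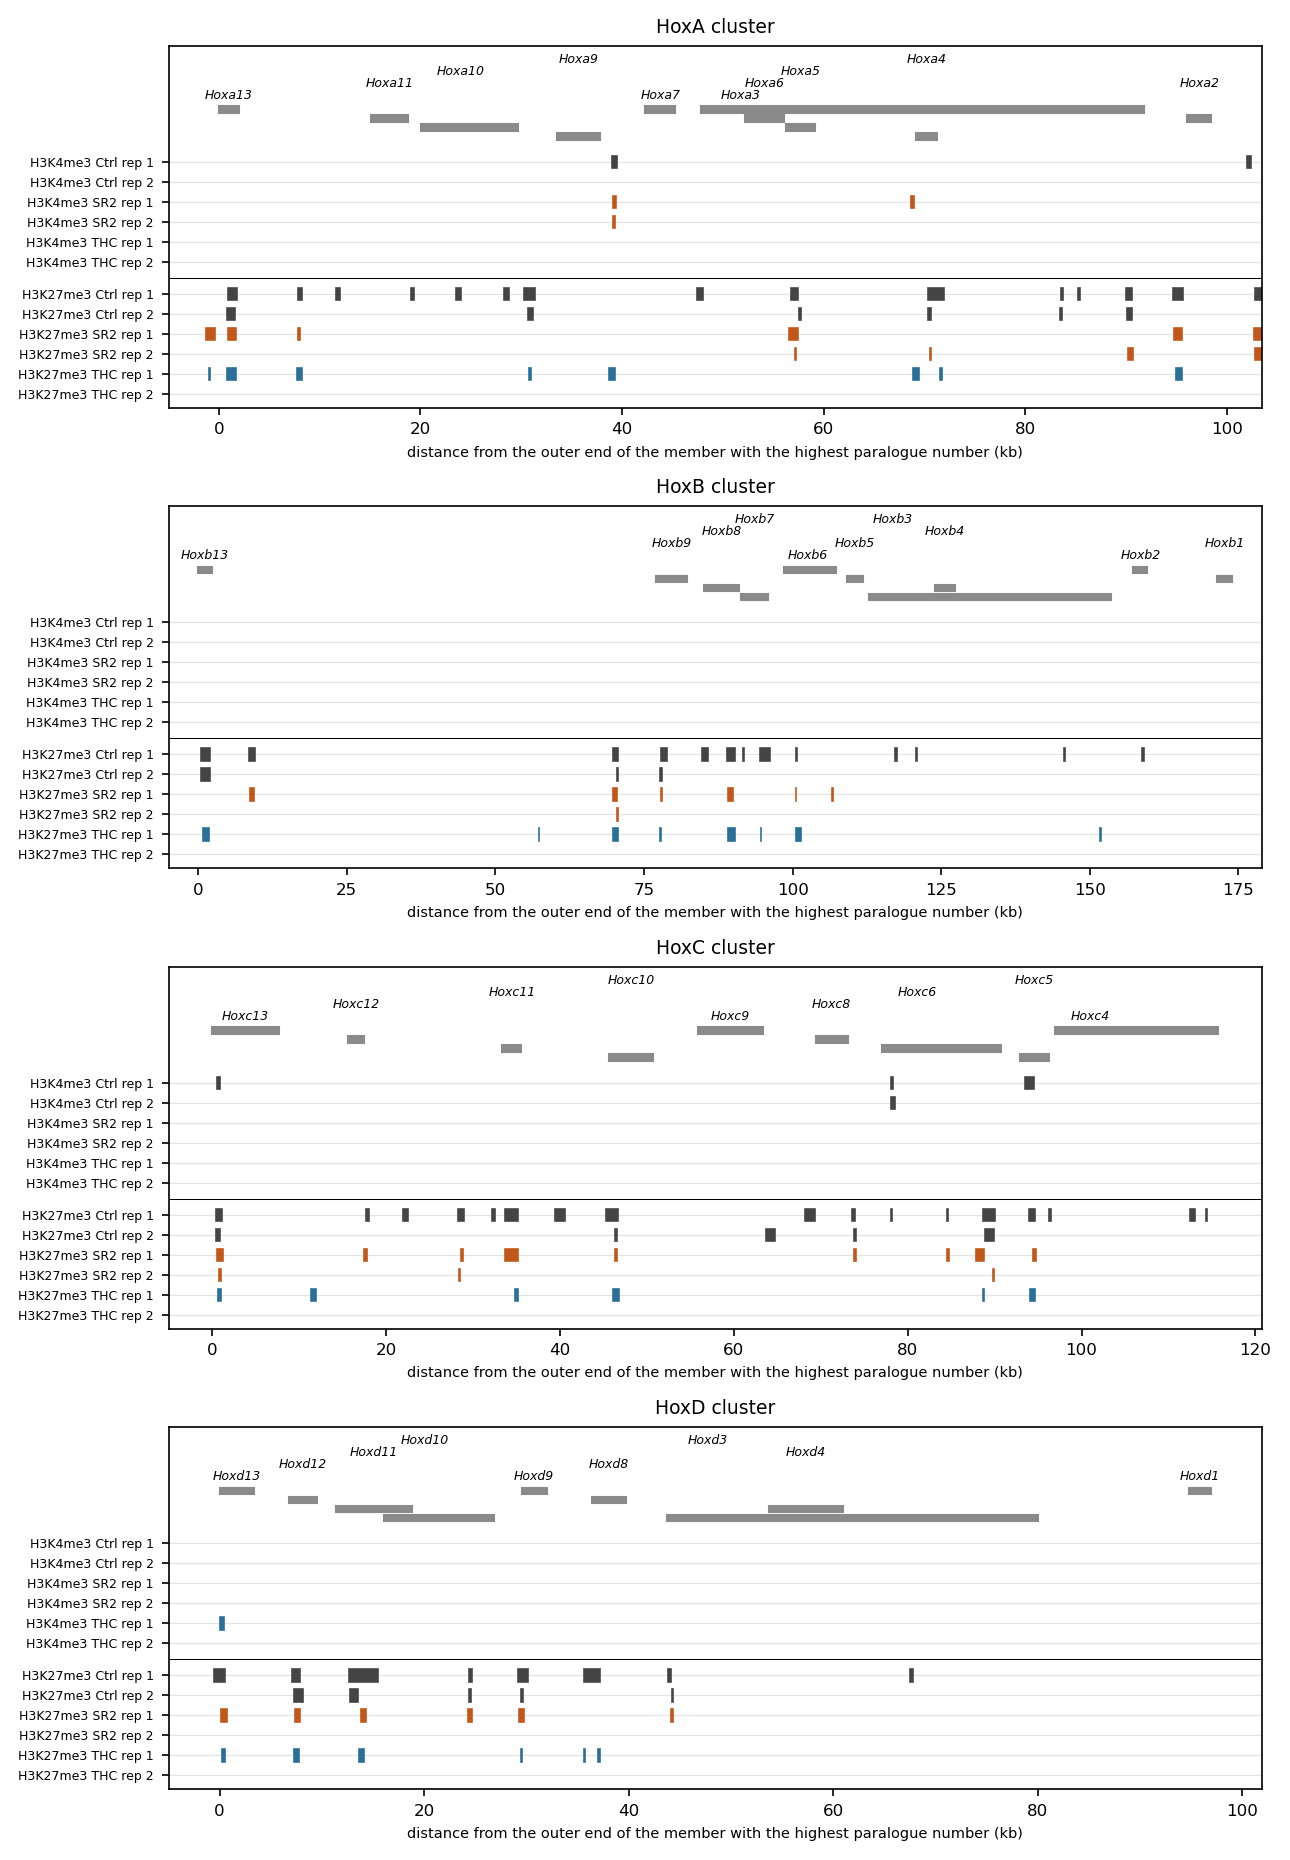
Map of the 4 clusters, in kb from the outer end of the member with the highest paralogue number (x axis), with genes as grey bars and the peaks of the 12 libraries as boxes (Ctrl dark grey, SR2 orange, THC blue). H3K4me3 peaks are few and HoxB has none, and H3K27me3 peaks recur at the same places in several libraries, with none in THC replicate 2.

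Most Hox H3K27me3 peaks of the shorter lists overlapped a peak of Ctrl replicate 1, the longest list. Of the 19 peaks in the clusters in Ctrl replicate 2, 17 overlapped a peak of Ctrl replicate 1, against 170 of 368 peaks elsewhere in that list. The SR2 replicate 1 list gave 25 of 27 against 217 of 813, and all 8 cluster peaks of SR2 replicate 2 overlapped Ctrl replicate 1, against 66 of 149. Among other pairs, 63.0% of the Hox peaks of SR2 replicate 1 overlapped THC replicate 1, against 21.6% of that list's other peaks. In the reverse direction it was 60.7% against 18.2%. SR2 replicate 2 and THC replicate 1 did not show this. Of the 8 peaks, 2 overlapped THC replicate 1 (25%), against 46.3% of the list's other peaks. In reverse, 7.14% of the Hox peaks of THC replicate 1 overlapped SR2 replicate 2, against 7.11%. No Hox peak overlapped THC replicate 2. Hox peaks were long and shallow: the median Hox peak of Ctrl replicate 1 was 743 bp long at a fold enrichment of 2.45 by the authors' values, where the list's medians were 344 bp and 3.96. Merged over libraries, the clusters held 62 H3K27me3 regions, of which 29 were seen in 1 library, 8 in 4 libraries and 3 in 5 libraries. The 3 lie beside Mir196a-1 at chr11:96263876-96264972, in Hoxc13 at chr15:102921466-102922339, and between the starts of Hoxc6 and Hoxc5 at chr15:103008924-103011205. Of the 53 cluster peaks in Ctrl replicate 1, 24 lay within 1 kb of a Hox start, 18 elsewhere in a Hox gene and 11 between genes. Windows of 1 kb around the starts make up 15.2% of the span and held 36.4% of the covered bp in each Ctrl library.

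Within HoxD the marked genes were those of the 5′ side and Hoxd3. The 5′ genes Hoxd13, Hoxd12, Hoxd11, Hoxd10, Hoxd9 and Hoxd8 were each marked in 4 libraries and Hoxd3 in 3, whereas Hoxd4 and Hoxd1 were marked in none. Hoxd10, a factor for limbs and spinal motor neurons, had the most: 4398 and 1502 bp in Ctrl, against 1600 and 0 bp under SR2 and 804 and 0 bp under THC. Hoxd11, which acts in the forearm and kidney, had 3826 and 1804 bp in Ctrl, against 1114 and 0 bp under SR2 and 1180 and 0 bp under THC. Hoxd12 had 2818 and 1804 bp in Ctrl and the same bp as Hoxd11 in the treated libraries, because their flanks overlap. Evx2, the homeobox gene just beyond Hoxd13, had H3K27me3 in 5 libraries, with 2879 and 1156 bp in Ctrl.

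HoxB was split in a like way, with the mark at the 5′ genes. Hoxb13, a factor of the prostate and hindgut, had 1681 and 1613 bp in Ctrl, against 0 and 0 bp under SR2 and 1185 and 0 bp under THC. Hoxb8 had 4590 and 0 bp in Ctrl, against 1078 and 0 bp under SR2 and 1493 and 0 bp under THC, so its Ctrl libraries spanned the others. Hoxb7 had 3870 and 0 bp in Ctrl, against 1323 and 0 bp under SR2 and 1929 and 0 bp under THC. Hoxb9, with a role in mammary and rib development, was marked in 4 libraries, and Hoxb6 in 3. Toward the 3′ end the mark was scarce: Hoxb3 was marked in 2 libraries, Hoxb5, Hoxb4 and Hoxb2 in 1 each, and Hoxb1, a hindbrain gene, in none.

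In HoxA and HoxC every member described here was marked in at least 1 library. Hoxa3, a gene of the pharyngeal arches and thymus, had the most in HoxA, with 5536 and 1708 bp in Ctrl, against 1880 and 1089 bp under SR2 and 1648 and 0 bp under THC. Its annotated gene is long and encloses Hoxa4, Hoxa5 and Hoxa6, so their peaks count for it too. Hoxa4 had 1744 and 473 bp in Ctrl, against 0 and 245 bp under SR2 and 1035 and 0 bp under THC. Hoxa2 and Hoxa13 were marked in 4 libraries, Hoxa7 in 2 and Hoxa11 in 1. In HoxC, Hoxc6 had 3280 and 1540 bp in Ctrl, against 2054 and 192 bp under SR2 and 924 and 0 bp under THC. Hoxc5 had 2581 and 1125 bp in Ctrl, against 1316 and 192 bp under SR2 and 924 and 0 bp under THC. Hoxc11 had 3805 and 0 bp in Ctrl, against 1947 and 114 bp under SR2 and 400 and 0 bp under THC. Hoxa3, Hoxc5, Hoxc6 and Hoxc13 were the Hox genes marked in 5 libraries. Hoxc13 had 756 and 614 bp in Ctrl, against 701 and 345 bp under SR2 and 1200 and 0 bp under THC, and these groups overlapped. Hoxc10 was marked in 4 libraries, and Hoxc12 and Hoxc4 were marked in 3.

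Read across clusters by paralogue group, the share of marked genes rose toward the 5′ end in both Ctrl libraries and in THC replicate 1. In SR2 replicate 1, groups 4 to 8 and 9 to 13 were both above groups 1 to 3, with no further rise. SR2 replicate 2 did not show a rise to groups 9 to 13. In Ctrl replicate 1, 5 of 7 genes of groups 1 to 3, 13 of 15 of groups 4 to 8 and 16 of 16 of groups 9 to 13 were marked. In Ctrl replicate 2 the counts were 2 of 7, 7 of 15 and 13 of 16, and in THC replicate 1 they were 3 of 7, 9 of 15 and 14 of 16. SR2 replicate 1 had 3 of 7, 11 of 15 and 11 of 16, and in SR2 replicate 2 the counts of 2 of 7, 5 of 15 and 2 of 16 gave the 5′ groups the lowest share. In HoxA, SR2 replicate 1 marked 2 of 2 genes of groups 1 to 3 and 1 of 4 of groups 9 to 13. These counts are a description, since neighbours share peaks and members are not replicates.

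**Figure D3:**
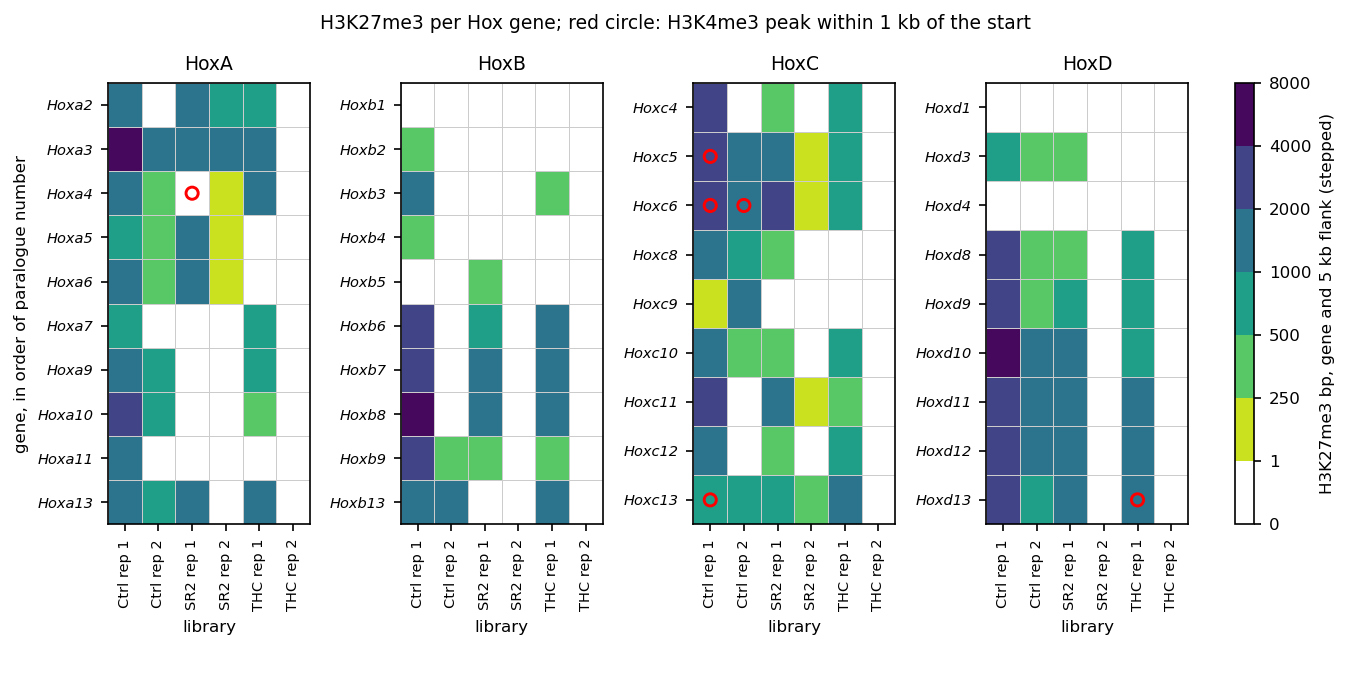
H3K27me3 bp over each Hox gene with 5 kb of flank (colour, stepped scale) by gene (rows, in order of paralogue number) and library (columns), with red circles where an H3K4me3 peak lay within 1 kb of the start. Hoxd1, Hoxd4 and Hoxb1 are blank throughout, as is the THC replicate 2 column, and Hoxc6 has circles in both Ctrl columns.

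The length of the 4 clusters under H3K27me3 was smaller in each treated library than in the Ctrl library of the same batch, but the groups of libraries overlapped. Over the 4 clusters the covered length was 28406 ± 23275 bp in Ctrl, against 10086 ± 10090 bp under SR2 and 7846 ± 11096 bp under THC (mean ± SD, n = 2 each). Within batch 1 the difference from Ctrl was −27643 bp for SR2 and −29172 bp for THC, and within batch 2 it was −8997 and −11948 bp. The overlap came from SR2 replicate 1 and THC replicate 1, which lay above Ctrl replicate 2, and the exact two-sided permutation p was 0.667 for each treatment. Single genes did not all follow the total: Hoxa13 had 1011 bp in Ctrl replicate 1 and 1873 bp in SR2 replicate 1, and Hoxa2 had 0 bp in Ctrl replicate 2 and 720 bp in SR2 replicate 2. HoxC and HoxD were the clusters in which both THC libraries lay below both Ctrl libraries: HoxC had 13244 and 3628 bp in Ctrl against 3264 and 0 bp in THC, and HoxD 8812 and 2759 bp against 2385 and 0 bp, each with an exact permutation p of 0.333. When each list was held to its top 70 peaks, the THC difference went from −6804 to −901.5 bp in HoxC and from −4593 to 0 bp in HoxD. In HoxA the SR2 difference of −3790 bp turned to 227 bp without Ctrl replicate 1, and in HoxB the THC difference of −4199.5 bp turned to 407 bp without it. The length of the whole lists moved with these values (2712 and 387 peaks for Ctrl, 840 and 157 for SR2, 984 and 70 for THC), and its part in the result was not tested.

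**Figure D4:**
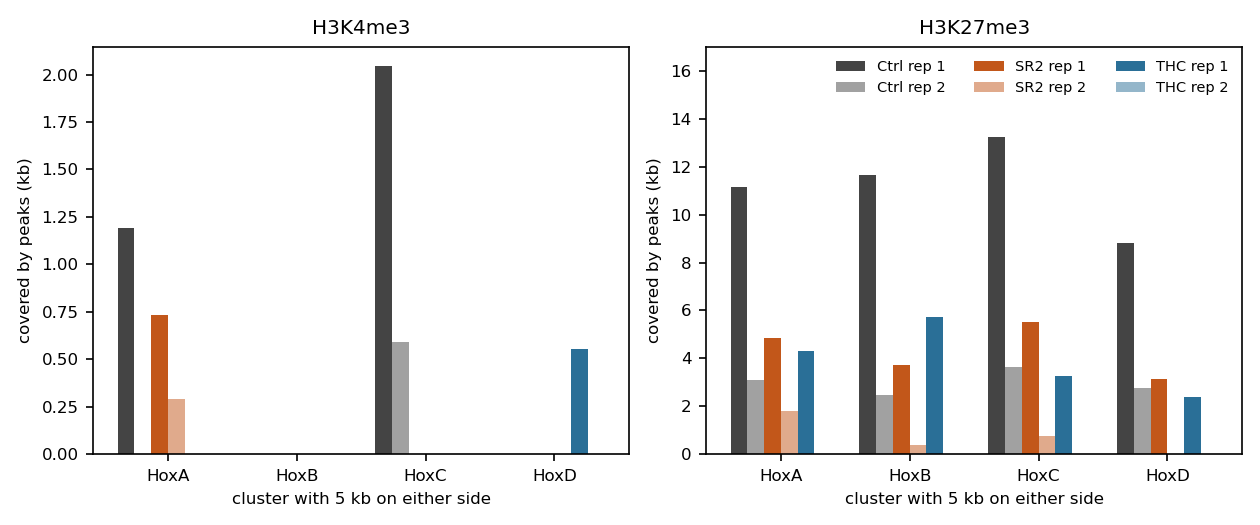
Length covered by peaks (kb, y axis) in each cluster with 5 kb on either side (x axis), for H3K4me3 (left) and H3K27me3 (right), with 1 bar per library, dark for replicate 1 and pale for replicate 2. Ctrl replicate 1 is the highest H3K27me3 bar in every cluster and THC replicate 2 is at 0 in all of them.

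Some genes had H3K27me3 in the pair of Ctrl libraries but in none of a treatment. For SR2 these were Hoxa9, Hoxa10, Hoxb13 and Hoxc9, 4 of the 22 Hox genes marked in both Ctrl libraries (18.2%), against 47.3% of all 167 such genes. For THC they were Hoxa5, Hoxa6, Hoxc8, Hoxc9 and Hoxd3, 5 of 22 (22.7%), against 38.9%. Both Hox shares were below the background, and the differences were not tested. No Hox gene was marked in a treatment's pair of libraries after none in Ctrl, where the background was 0.0199% for SR2 and 0.00996% for THC. Library by library, 17 of the 22 were still marked in SR2 replicate 1 (77.3%, against 47.9% of the 167), 7 in SR2 replicate 2 (31.8%, against 26.3%), 17 in THC replicate 1 (77.3%, against 59.3%) and 0 in THC replicate 2 (0%, against 13.8%). The counts thus rest on single libraries: without SR2 replicate 1 the count for SR2 was 15, without THC replicate 1 that for THC was 22, and without Ctrl replicate 2 they were 9 and 8.

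Of the genes missing from SR2, 2 are neighbours in HoxA. Hoxa10, a factor of the uterus and of blood progenitors, had 2776 and 577 bp in Ctrl, against 0 and 0 bp under SR2 and 269 and 0 bp under THC. Hoxa9, its neighbour, had 1530 and 577 bp in Ctrl, against 0 and 0 bp under SR2 and 924 and 0 bp under THC, and Mir196b lies between them. Hoxc9 had 227 and 1129 bp in Ctrl and 0 bp in all treated libraries. It was the Hox gene found in both sets. Under THC, Hoxc8 had 1931 and 763 bp in Ctrl, against 357 and 0 bp under SR2 and 0 and 0 bp under THC. Hoxa5, a gene of the lung and also of the mammary gland, had 757 and 325 bp in Ctrl, against 1013 and 245 bp under SR2 and 0 and 0 bp under THC, and Hoxa6 had 1416 and 325 bp in Ctrl and the same bp as Hoxa5 under treatment. The SR2 libraries of Hoxa5 thus overlapped Ctrl and its THC libraries did not. Hoxd3 had 711 and 267 bp in Ctrl, against 334 and 0 bp under SR2 and 0 and 0 bp under THC.

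In limma's test of log2(covered bp + 1000) over the 554 genes marked in at least 2 libraries, 31 of the 38 Hox genes entered and 7 were too rarely marked. Because a gene had to be marked somewhere to enter, the 31 are not all members. After SR2 the 31 had a median log2 difference of −0.71, against −0.20 over all 554 genes, and after THC −0.65 against −0.19. These values were not centred, and the Ctrl lists held 2712 and 387 peaks, against 840 and 157 for SR2 and 984 and 70 for THC. On this scale a gene with few bp in Ctrl also has little room to fall. The part of list length and of this floor in these medians was not tested. By presence, the share still marked was higher for Hox genes than for all genes in SR2 replicates 1 and 2 and THC replicate 1. It was lower in THC replicate 2. The medians thus do not show that Hox genes lost more of the mark than other genes. Neighbours share peaks, so the 31 are not independent. Limma called 0 genes at an adjusted p under 0.05 in either direction for either treatment (0% lower). At an unadjusted p under 0.05, 61 genes (11%) were lower after SR2, 3 of them Hox genes, and 53 (9.57%) after THC, 1 of them a Hox gene. The smallest p for SR2 was that of Hoxb13, at −1.40 (SE 0.46, limma adjusted p = 0.307), followed by Hoxa10 at −1.29 (SE 0.48, limma adjusted p = 0.392) and Hoxc8 at −0.96, Hoxa9 at −1.0 and Hoxc9 at −0.69. For THC it was that of Hoxc8, at −1.18 (SE 0.37, limma adjusted p = 0.342), followed by Hoxa10 at −1.12, Hoxc9 at −0.69, Hoxd10 at −1.45 and Hoxd11 at −1.32. None of these differences passed the threshold. Hoxc9 entered the test only through the Ctrl libraries, where it was high. Hoxb13, Hoxa10, Hoxa9 and Hoxc8 also needed their Ctrl libraries to reach 2 marked libraries. The differences, p-values and ranks of all these genes are therefore a description only.

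Most H3K4me3 regions in the clusters overlapped H3K27me3 of some library, but few H3K27me3 regions overlapped H3K4me3. Of the 7 H3K4me3 regions, 6 (85.7%) overlapped an H3K27me3 peak of at least 1 library, against 5.53% of all 24596 H3K4me3 regions. Of the 62 H3K27me3 regions, 6 (9.68%) overlapped an H3K4me3 peak, against 32.4% of all 4187. The exception among the 7 was the region at Hotairm1. At Hoxc13 the H3K27me3 peak was present in 5 libraries, at Hoxc5 in Ctrl, SR2 and THC replicate 1, and at Hoxd13 in the same 3. At Hoxc6 the overlap was in Ctrl replicate 1. At Hoxa4 and between Hoxa7 and Hoxa9, the H3K27me3 was in THC replicate 1 alone, a library with no H3K4me3 there. The libraries come from many cells, so both marks on the same chromatin and each mark in different cells cannot be told apart.

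Other gene lists show where the Hox genes stand, with H3K4me3 read at either gene end, where 52% of all protein-coding genes were marked in both Ctrl libraries. Of 60 other developmental transcription factor genes, 18 (30%) had H3K4me3 in both Ctrl libraries, against 1 of 38 Hox genes by the same measure, and 20 (33.3%) had H3K27me3 in both. H3K4me3 was missing from both libraries of SR2 at 3 of these 18 genes and of THC at 8. The share over all genes was taken only by the start measure, at 1.39% for SR2 and 5.19% for THC. The measures differ, so these counts are a description only. Of the 9 genes for Hox cofactors, 8 had H3K4me3 in both Ctrl libraries, among them Meis1, whose product binds DNA together with Hox proteins, and 1, Meis2, had H3K27me3 there. Of 22 Polycomb genes 21 had H3K4me3 in both Ctrl libraries, as did 12 of 14 Trithorax-group genes and 3 of 10 upstream patterning genes. Of 15 noncoding genes within the clusters, 7 had H3K27me3 in both Ctrl libraries, and Hotairm1 and Mir615 had H3K4me3 in Ctrl replicate 1.

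As a check of the label of breast cancer cells, 8 of 8 epithelial marker genes, Cdh1, Epcam and Krt8 among them, had H3K4me3 in both Ctrl libraries. Of 12 stromal and blood markers 2 had it, the vascular gene Kdr and the collagen gene Col1a1, while the blood gene Ptprc and the endothelial gene Pecam1 had none in any library. Kdr and Col1a1 had no H3K4me3 in either THC library, like Hoxc6, and the number of these 12 markers with a peak was 2 and 2 in Ctrl, 2 and 1 under SR2 and 0 and 0 under THC. The part of other cells in the Hoxc6 result was not tested. THC replicate 1, the shortest H3K4me3 list, also lacked peaks at Krt18 and Krt19.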

How the data were processed

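CUT&Tag libraries were made from 500000 cells each and read as 150 bp pairs, per the labels' protocols. Per the submitters' processing notes, the tools were MACS3, Bowtie2 2.5.4, cutadapt 5.2, SAMtools 1.8, Picard, bedtools and deepTools, and the build was mm10. The authors deposited 1 peak list per library, narrow for H3K4me3 and broad for H3K27me3, whose lines give a score, a fold enrichment (a ratio to the caller's background) and −log10 p and q values. These deposited values served for ranking and describing peaks of the same list. Genes and starts came from RefSeq on GRCm38.p6, the assembly of mm10.

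Peaks were merged over libraries with at least 1 bp of overlap. Breadth was tested with limma 3.58.1 (R 4.3.3) with Benjamini-Hochberg adjustment over the whole table. H3K4me3 was centred on regions present in all 6 libraries, and H3K27me3 was not centred. The test was checked on simulated H3K4me3 breadth of regions present in all 6 libraries. That check does not cover regions with 0 bp in some libraries, as the Hox regions have. Cluster lengths were tested by exact permutation in Python 3.11.15. The members and lists were chosen with earlier results of these data known. Values in every library were given for genes marked in one group only, the 3 members per cluster with the most of each mark in Ctrl, and the 5 smallest p-values per comparison. The batch number pairs the samples by the labels; the deviations of same-numbered samples correlated at −0.0619 to 0.0479 (H3K4me3) and 0.0772 to 0.0966 (H3K27me3). Depth is unknown, since peak lists carry no read totals.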

Additional observations from a re-analysis of the deposited data

How the results depend on the processing

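With batch as a replicate block, limma called 0 regions and 0 genes, as without it, and the block changed no other call. For H3K4me3 breadth, where 0 regions passed, a pseudocount of 50 bp gave 1059 regions for SR2 and 1417 for THC, and no centring 994 and 1914, with 1 Hox region, Hoxc6, among each. Its log2 difference was then −3.20 and −2.92, and −1.73 for both. For THC, 39 regions passed when those of a single library entered, 1929 with only the 4 libraries compared, and 4 with the same number of peaks per library. Leaving out a library gave 0 to 2183 regions for THC against Ctrl and 0 to 1189 for THC against SR2, the highest without THC replicate 2. The region between Hoxa7 and Hoxa9 turned from 0.51 to −0.15 for SR2 when peaks needed a −log10 q of 5 and ranged from −0.48 (without Ctrl replicate 2) to 1.49 without a library, and from −0.65 to 0.13 for THC with quantile normalization, with a range of −1.64 to 0.34 (without Ctrl replicate 1) without a library.

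The 1 Hox gene with H3K4me3 in both Ctrl libraries, also the 1 missing from each treatment, became 0 within 250 bp of the start and with the same number of peaks per library, and 1 to 3 when a library was left out, an alternative chosen after seeing the data. The 22 Hox genes with H3K27me3 in both Ctrl libraries became 14 without flank, 1 with the same number of peaks (70 per library) and 5 at a −log10 q of at least 2, and 22 to 34 without a Ctrl library. The 4 genes missing from SR2 became 1, 0 and 3 in the same order, and 4 to 15 without a library. The 5 missing from THC became 3, 1 and 3, 2 with at least 500 bp, and 5 to 22 without a library. With 70 peaks per library, H3K27me3 differences for SR2 turned to 122.5 bp in HoxA, 191.5 bp in HoxB, 314 bp in HoxD and 345.5 bp over the 4 clusters; without Ctrl replicate 1, HoxA turned to 227 bp for SR2 and HoxB to 407 bp for THC, the upper ends of ranges that began at −7807 and −8806 bp. For H3K4me3, the SR2 difference of −82 bp in HoxA turned to 196.5 bp without flank and to 182 bp with the same number of peaks, which was also the value over the 4 clusters (276.5 bp for THC), and ranged from −676.5 to 512.5 bp without a library (139.5 bp without SR2 replicate 2). The cause was not tested. The unknown depth limits every count of 0.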
